A study of Homo sapiens with 64 samples.

Results

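Transcripts of colon cancer stem cell (CSC) markers were examined in 6 human colorectal cancer (CRC) cell lines, in label-retaining cells (LRCs) and non-LRCs of spheroids. The markers were ALDH1A1, ALDH1A3, PROM1, CD44, CD24, PTK7, OLFM4, SMOC2, MSI1 and BMI1. They were listed by symbol and matched to Ensembl identifiers. No rule on their values here was used, but the list was chosen with earlier results of these data known. Of the 10 markers, 9 had a row among the 54127 genes counted. No row held the identifier of CD24, and rows of its pseudogenes were not used in its place, so CD24 was not analysed here.

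CSC markers name cells that start tumors or keep them growing, and most were taken over from the normal crypt or from cell sorting. ALDH1A1 and ALDH1A3 oxidise retinaldehyde to retinoic acid, and cells with high aldehyde dehydrogenase activity are sorted as stem-like. PROM1 encodes the membrane protein CD133, CD44 encodes a hyaluronan receptor with many splice forms, and PTK7 encodes a receptor-like protein with an inactive kinase domain that acts in planar cell polarity and Wnt signaling. OLFM4, a secreted glycoprotein, and SMOC2, a secreted calcium-binding matrix protein, mark the stem cells at the base of the intestinal crypt. MSI1 is an RNA-binding protein and BMI1 is a subunit of Polycomb repressive complex 1. The counts measured transcripts of the whole gene, so they hold neither splice forms of CD44 nor surface protein nor enzyme activity.

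On GRCh37 the measured genes were ALDH1A1 (ENSG00000165092, chr9:75515587-75695358, minus strand), ALDH1A3 (ENSG00000184254, chr15:101417919-101456831, plus strand) and PROM1 (ENSG00000007062, chr4:15964699-16086001, minus strand). CD44 (ENSG00000026508, chr11:35160429-35253949), PTK7 (ENSG00000112655, chr6:43044045-43129457), OLFM4 (ENSG00000102837, chr13:53602948-53626192) and SMOC2 (ENSG00000112562, chr6:168841831-169073984) lie on the plus strand. MSI1 (ENSG00000135097, chr12:120779133-120806967) lies on the minus strand and BMI1 (ENSG00000168283, chr10:22610028-22620413) on the plus strand. All 9 are annotated as protein coding.

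HT55, SW948, RKO, SW48, DLD1 and HCT15 are established CRC lines. Cells were loaded with CFSE, a dye that is shared out between daughter cells, and grown as nonadherent serum-free spheroids with EGF and bFGF. LRCs, which kept a high CFSE signal, and the bulk of the cells (non-LRCs) were then sorted on day 6, with 4 libraries per population and line. A further 16 libraries were labelled as unsorted DLD1 spheroids, either CFSE-labeled or unlabeled (DMSO in the labels), on day 1 and day 5, with 4 libraries per group. The series' design text gives the later day as 6. The methods of the study speak of biological quadruplicates, but no label ties a library to a culture, and p-values measure the spread between these libraries.

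Each library held between 12237225 and 20913455 reads on genes. Levels are given in CPM, the reads of a gene per 1000000 reads on genes, scaled by the trimmed mean of M-values (TMM) over all 64 libraries. At this depth 3 reads correspond to between 0.143 and 0.245 CPM before TMM scaling. After scaling they shift with the library, for example to 0.261 CPM in RKO LRC replicate 1. Levels of fewer than 3 reads are not separable from 0. In sorted bulk RNA, fewer cells with a transcript and less transcript per cell cannot be told apart. Of 12 epithelial marker genes, between 10 and 12 reached 1 CPM in the non-LRCs of every line except RKO, where 4 did (7 in RKO LRCs). Fibroblast, endothelial and leukocyte marker lists summed to at most 14.0, 3.59 and 22.5 CPM in any sorted library.

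Several libraries stood apart from their labels. All 16 control libraries labelled DLD1 correlated more closely with sorted HCT15 (r from 0.951 to 0.992 over 16899 genes) than with sorted DLD1 (r from 0.915 to 0.956). They are called the control libraries labelled DLD1 below. SW948 LRC replicate 4 was nearest to SW948 non-LRC replicate 3, and unlabeled day 1 replicate 4 was nearest to unlabeled day 5 replicate 3. In HT55 and in SW48, the LRC and non-LRC libraries numbered 2 were each other's nearest library. Some results that rest on these libraries are given with and without them, and levels by line are given with all libraries.

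The markers first differed in how widely they were transcribed. CD44, PTK7 and BMI1 were above 1 CPM in all 48 sorted libraries. ALDH1A1 and PROM1 reached a mean of 1 CPM in the non-LRCs of 4 lines, ALDH1A3 and MSI1 in 3, SMOC2 in 2 and OLFM4 in 1. The 9 markers all differed between the 6 lines in an F test over the 24 non-LRC libraries (edgeR quasi-likelihood, Benjamini-Hochberg adjusted p from 4.96e-24 for MSI1 to 3.67e-10 for BMI1). So did 98.3% of the 15779 genes tested. Between single pairs of lines, 113 of 135 marker tests passed an adjusted p of 0.05, against 71.1% of all gene by pair tests.

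**Figure D1:**
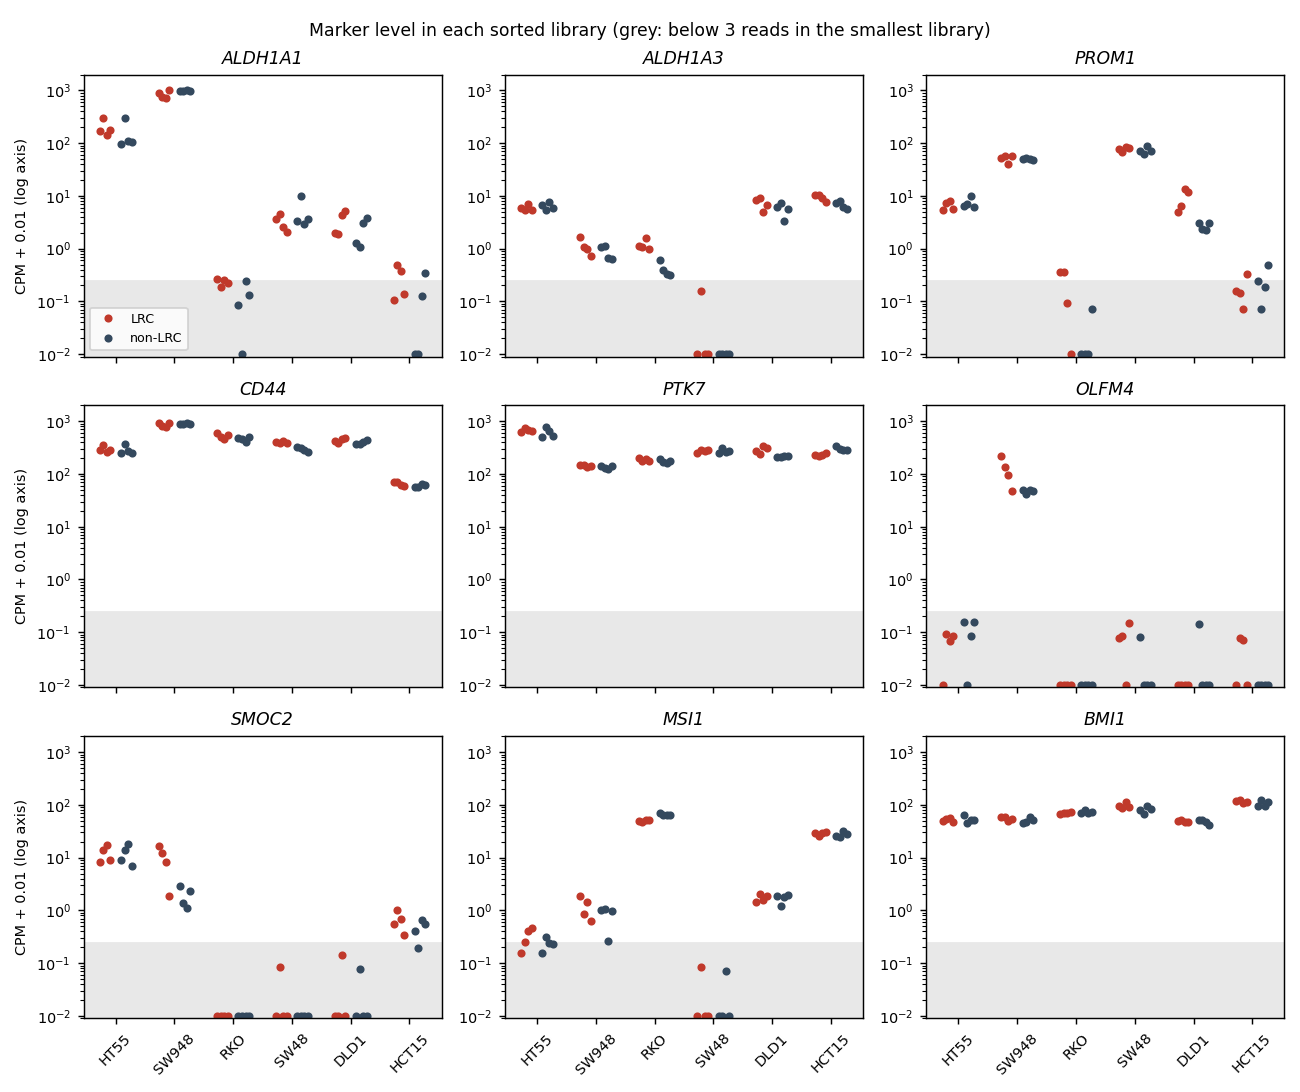
CPM of the 9 measured markers in each of the 48 sorted libraries (vertical log axis, 0.01 added so that libraries at 0 can be drawn), by line, with LRCs in red and non-LRCs in blue. CD44, PTK7 and BMI1 lie far above the grey band in every line, while OLFM4 leaves it in SW948 alone. The band reaches 0.245 CPM, which is 3 reads in the smallest library before TMM scaling.

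CD44, the hyaluronan receptor, was highest in SW948 non-LRCs at 901 CPM ± 14.8 (SD, n = 4) and lowest in HCT15 at 60.3 ± 4.18, a 14.9-fold span. Between them lay RKO (463 ± 35.1), DLD1 (394 ± 31.1), SW48 (295 ± 25.4) and HT55 (284 ± 57.1). RKO and DLD1 did not differ beyond the spread between libraries (adjusted p = 0.0573, edgeR), nor did SW48 and HT55 (adjusted p = 0.932). The other neighbors in this order differed.

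PTK7, the inactive receptor-like kinase, had another order. HT55 non-LRCs were highest at 608 ± 120 CPM (SD, n = 4), followed by HCT15 (302 ± 25.1), SW48 (276 ± 27.2), DLD1 (214 ± 7.25), RKO (177 ± 13.7) and SW948 (136 ± 8.98), a 4.48-fold span. Of the neighbors, HCT15 and SW48 alone did not differ (adjusted p = 0.243, edgeR). BMI1, the Polycomb subunit, varied least, by 2.24-fold. It was highest in HCT15 (107 ± 13.4 CPM), intermediate in SW48 (81.1 ± 11.8) and RKO (74.0 ± 5.36), and lowest in HT55 (53.1 ± 7.32), SW948 (50.5 ± 5.68) and DLD1 (47.7 ± 5.12). Neighbors within the intermediate and the lowest lines did not differ (adjusted p = 0.305, 0.431 and 0.559), whereas the steps from HCT15 to SW48 and from RKO to HT55 did.

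The 2 retinaldehyde dehydrogenases had different orders of lines, although HT55 and DLD1 non-LRCs held both at a mean above 1 CPM. ALDH1A1 was at 983 ± 14.6 CPM (SD, n = 4) in SW948 non-LRCs and at 154 ± 99.4 in HT55, the 2 lines that the study places in the colon cancer subtype CCS1. It was at 4.94 ± 3.29 in SW48 and 2.28 ± 1.33 in DLD1, and HCT15 (0.115 ± 0.161) and RKO (0.109 ± 0.0992) were near 0. The means of HT55 and SW48 were raised by the libraries numbered 2 (302 and 9.86 CPM), and their medians were 107 and 3.48 CPM. ALDH1A3 was instead at similar levels in HCT15 (6.79 ± 1.10), HT55 (6.43 ± 1.07) and DLD1 (5.59 ± 1.70), which did not differ from the next in order (adjusted p = 0.837 and 0.356, edgeR). It was at 0.872 ± 0.269 in SW948, at 0.406 ± 0.138 in RKO and without a read in the 4 SW48 non-LRC libraries. On a scale per length (RPKM over the union of annotated exons), ALDH1A1 reached 346 in SW948, above CD44 (90.2) and PTK7 (15.1) in the same cells. ALDH1A3 did not exceed 1.27 RPKM in any line. Of the other family members, ALDH1B1 was at between 74.8 and 126 CPM in the non-LRCs of all 6 lines, and ALDH1A2 was at most at 0.102 CPM there.

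PROM1, which encodes CD133, was highest in SW48 (72.7 ± 10.4 CPM, SD, n = 4), then SW948 (50.5 ± 2.01), HT55 (7.33 ± 1.84) and DLD1 (2.68 ± 0.409), and all neighbors among these differed (adjusted p from 1.68e-14 to 0.00101, edgeR). HCT15 (0.237 ± 0.175) held 4, 1, 3 and 7 reads in its non-LRC libraries and RKO (0.0156 ± 0.0312) 1 read in all. On these few reads HCT15 was above RKO (log2 difference 3.21, adjusted p = 0.00279, edgeR). The paralogue PROM2 ran differently, with 24.1 ± 2.77 CPM in DLD1 and 22.3 ± 3.21 in HCT15 non-LRCs.

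The crypt base markers were the most restricted. OLFM4 was at 47.5 ± 4.14 CPM (SD, n = 4) in SW948 non-LRCs, and the other 5 lines held at most 2 reads in any sorted library. RKO had no OLFM4 read in 8 libraries, where 3 reads in non-LRC replicate 3 would be 0.237 CPM. SMOC2 was at 12.0 ± 4.99 CPM in HT55, 1.90 ± 0.818 in SW948 and 0.447 ± 0.203 in HCT15, each different from the next (adjusted p = 4.31e-07 and 0.000334). RKO again had no read.

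MSI1, the RNA-binding protein, was highest in RKO and HCT15. It was at 65.4 ± 2.49 CPM (SD, n = 4) in RKO and 27.5 ± 2.93 in HCT15, then at 1.68 ± 0.342 in DLD1, 0.820 ± 0.378 in SW948 and 0.223 ± 0.0644 in HT55. SW48 held 1 read in its 4 non-LRC libraries. Each neighbor above SW48 differed from the next (adjusted p from 9.17e-16 to 0.000936, edgeR). The paralogue MSI2 was present in every line, from 28.3 ± 4.65 CPM in RKO to 200 ± 44.3 in HT55.

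RKO therefore combined CD44, PTK7, BMI1 and MSI1 with no OLFM4 or SMOC2 read and with ALDH1A1 and PROM1 near 0. SW948 held all 9 markers in its non-LRCs, from MSI1 at 0.820 CPM to ALDH1A1 at 983 CPM. DLD1 and HCT15, which were derived from the same tumor, were 6.53-fold apart in CD44 and 16.3-fold apart in MSI1.

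Whether LRCs and non-LRCs of a line differed in these markers was tested line by line on their 8 libraries. A gene was tested where at least 4 libraries held 10 or more counts, which 9 markers passed in SW948, 7 in HT55, 7 in DLD1, 6 in HCT15, 5 in RKO and 5 in SW48. Of these 39 tests, 4 passed an adjusted p of 0.05, beside 9.3% of all gene by line tests: ALDH1A3 and MSI1 in RKO, and PROM1 and PTK7 in DLD1. ALDH1A3 in RKO entered only through its LRC libraries, as no non-LRC library held 10 counts, and without it 3 of 38 tests passed. The direction was not shared, as MSI1 was lower in LRCs and the other 3 genes higher.

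**Figure D2:**
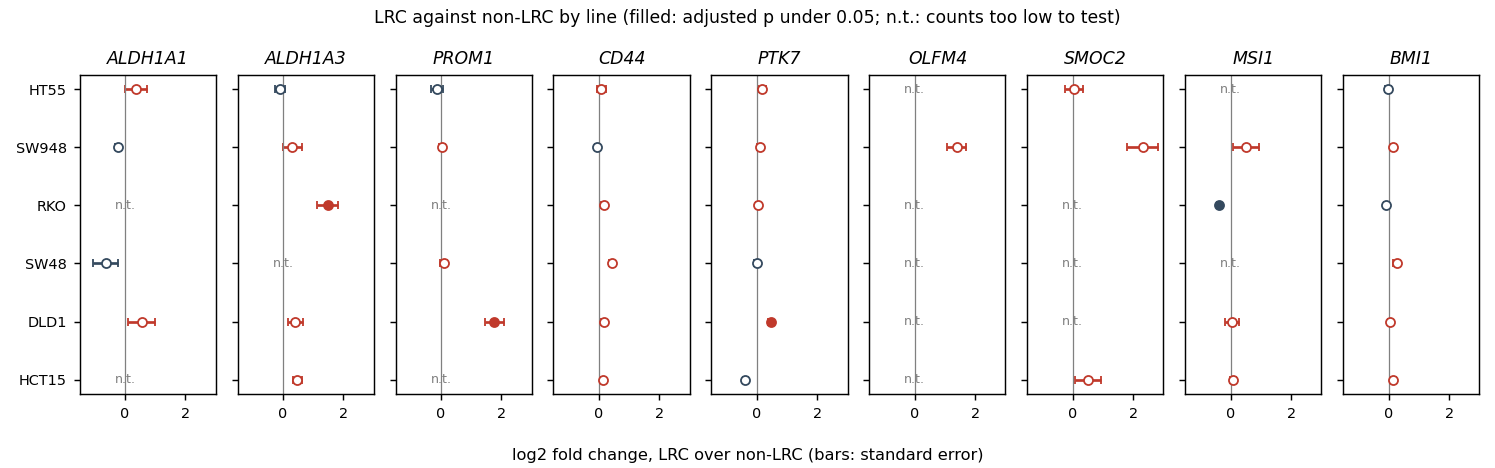
Log2 fold change of LRCs over non-LRCs (horizontal axis, bars are standard errors) for each measured marker and line, 4 libraries per population. Filled points passed an adjusted p of 0.05, which was the case for ALDH1A3 and MSI1 in RKO and for PROM1 and PTK7 in DLD1, and n.t. marks genes with too few counts to test.

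In RKO, 2 of 5 markers tested were called, beside 41.5% of all 12731 genes. ALDH1A3 was at 1.13, 1.05, 1.57 and 0.974 CPM in the 4 LRC libraries and at 0.606, 0.390, 0.315 and 0.312 CPM in the non-LRC libraries. The groups did not overlap, but the LRC level rested on between 13 and 19 reads per library. The non-LRC libraries held between 4 and 8 reads, so the gene passed the filter on low counts only through the population where it was higher, and its log2 difference of 1.48 (SE 0.34, 2.80-fold, adjusted p = 0.00288, edgeR) is a description. With no filter on low counts the difference was 1.47 (adjusted p = 0.00346). Without an LRC library it had too few counts to pass the filter. MSI1 was at 50.4, 47.7, 52.7 and 51.1 CPM in LRCs and at between 63.7 and 69.0 CPM in the 4 non-LRC libraries, again without overlap. MSI1 fell by 0.40 on the log2 scale (SE 0.07, adjusted p = 0.000316), and kept the call without any 1 library. CD44 (0.16, SE 0.08), PTK7 (0.04, SE 0.07) and BMI1 (-0.10, SE 0.07) gave smaller log2 differences and did not pass. In the same comparison 16 of 18 proliferation genes were lower in LRCs, with a median log2 difference of -0.68.

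In DLD1, 2 of 7 markers tested were called, both higher in LRCs, beside 14.6% of 13592 genes (6.67% higher). PROM1 was at 4.85, 6.53, 13.3 and 11.6 CPM in LRCs and at 3.03, 2.37, 2.29 and 3.03 CPM in non-LRCs. All LRC libraries lay above all non-LRC libraries, with replicates 3 and 4 higher than 1 and 2 in LRCs only. PROM1 rose by 1.77 on the log2 scale (SE 0.31, 3.41-fold, adjusted p = 0.00529, edgeR). PTK7 was at 270, 244, 337 and 314 CPM in LRCs and at 209, 207, 221 and 221 CPM in non-LRCs, with no overlap. It rose by 0.45 (SE 0.09, 1.37-fold, adjusted p = 0.00900). Both calls held without any 1 library.

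All 7 markers tested in DLD1 had a log2 difference above 0, with a median of 0.40, beside 0.02 over all genes tested. For MSI1 (0.04, SE 0.22) and BMI1 (0.05, SE 0.08) the difference was smaller than its SE. ALDH1A1 (0.56, SE 0.44), ALDH1A3 (0.40, SE 0.25) and CD44 (0.16, SE 0.08) did not pass, although each was higher in the LRC than in the non-LRC library of the same number in 4 of 4 cases. Same-numbered DLD1 libraries deviated together (r from 0.35 to 0.64), but so did libraries 1 with 2 and 3 with 4 across the populations (r from 0.31 to 0.49). With the replicate number as a block these 3 genes were called too (adjusted p = 0.0202 for ALDH1A1, 0.0124 for ALDH1A3 and 0.00290 for CD44), 5 of 7 markers beside 33.8% of all genes. Proliferation genes fell in 15 of 18 cases in this comparison (median log2 difference -0.56).

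HCT15 gave the opposite sign for PTK7. The LRC libraries were at 228, 217, 225 and 250 CPM and the non-LRC libraries at 339, 293, 287 and 287 CPM, again without overlap. The log2 difference was -0.38 (SE 0.09), with an adjusted p of 0.0693 (edgeR), and 0 of 6 markers were called beside 0.977% of 14017 genes. With the replicate block, PTK7 passed (adjusted p = 0.00103, edgeR), as it did in DESeq2 (adjusted p = 0.00291). Same-numbered HCT15 libraries deviated together (r from 0.41 to 0.69). So did libraries 1 with 2 and 3 with 4 across the populations (r from 0.46 to 0.69), so the number need not mark a pair. ALDH1A3 was higher in the LRC library of every same-numbered pair, at 10.3, 10.6, 9.11 and 7.71 CPM against 7.46, 7.97, 6.05 and 5.66 CPM. Its log2 difference of 0.48 (SE 0.16) had an adjusted p of 0.168, and of 0.00708 with the block. Under the block 2 of 6 markers were called beside 21.3% of all genes. Proliferation genes were not lower in HCT15 LRCs (0 of 18 called, median 0.18).

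In SW48, CD44 was at 410, 386, 416 and 379 CPM in LRCs and at 322, 309, 284 and 265 CPM in non-LRCs, and the groups did not overlap. The log2 difference was 0.43 (SE 0.09, adjusted p = 0.0597, edgeR), so that 0 of 5 markers were called beside 0.796% of 13196 genes, while DESeq2 called CD44 (adjusted p = 0.000305). With the replicate block, CD44 (adjusted p = 0.00355) and BMI1 (0.27, adjusted p = 0.0268) were called, beside 9.69% of all genes. SW48 LRC replicate 4 deviated more closely with non-LRC replicate 1 (r = 0.33) than with its own number (r = 0.27), so the number need not mark a pair. Without both libraries numbered 2, CD44 had an adjusted p of 0.0164. PROM1 (0.09, SE 0.11) and PTK7 (-0.01, SE 0.09) were at like levels in both populations, and ALDH1A1 (-0.64, SE 0.41) varied between libraries. Its non-LRC replicate 2 was at 9.86 CPM, beside 3.31, 2.95 and 3.65 CPM in the others.

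In SW948 and HT55 no gene passed the adjusted p of 0.05 in edgeR (0 of 13674 and 0 of 13391, 0% in each), with 2350 and 1005 genes at an unadjusted p under 0.05. DESeq2 called 244 and 37 genes. In SW948 these included SMOC2 (adjusted p = 0.0351) but not OLFM4 (adjusted p = 0.0623). The crypt base markers were nevertheless at the largest differences of the 9. OLFM4 was at 218, 135, 96.3 and 48.2 CPM in LRC replicates 1 to 4 and at 49.9, 41.6, 50.7 and 47.8 CPM in non-LRCs. SMOC2 was at 16.4, 12.2, 8.08 and 1.84 CPM in LRCs and at 2.85, 1.36, 1.09 and 2.29 CPM in non-LRCs. For both genes LRC replicates 1, 2 and 3 lay above all non-LRC libraries, and replicate 4 lay among them.

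**Figure D3:**
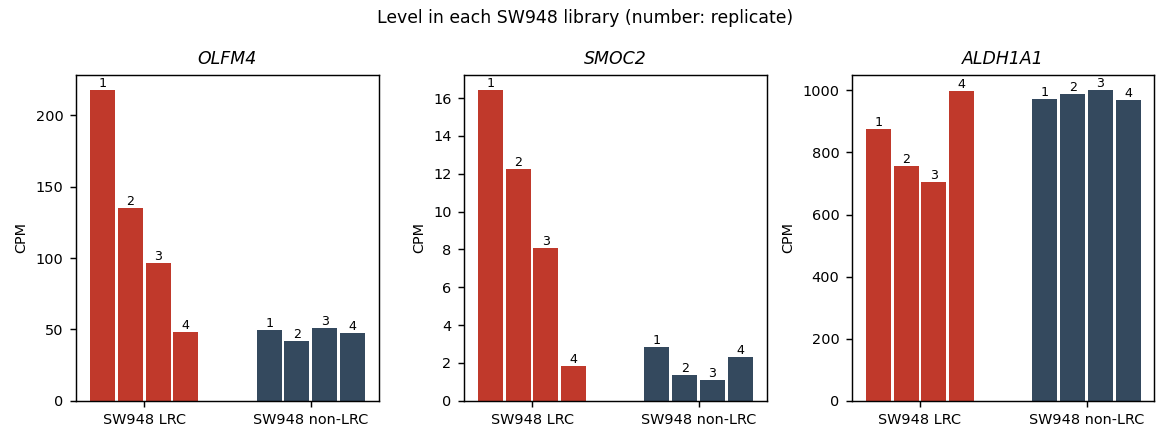
CPM of OLFM4, SMOC2 and ALDH1A1 in each of the 8 SW948 libraries (bars from 0, numbered by replicate, LRCs in red and non-LRCs in blue). LRC replicate 4 sits at the non-LRC level for OLFM4 (48.2 CPM) and SMOC2 (1.84 CPM), while the other 3 LRC libraries are higher.

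Over all 8 libraries the log2 difference was 1.39 (SE 0.31) for OLFM4 and 2.32 (SE 0.51) for SMOC2, each with an adjusted p of 0.133 (edgeR). Without LRC replicate 4, the library that was nearest to the non-LRCs over all genes, the values were 1.66 (adjusted p = 7.54e-05) and 2.68 (adjusted p = 4.00e-05). ALDH1A1 was then lower in LRCs (-0.33, adjusted p = 0.0167). Over all 8 libraries it was at -0.23 (SE 0.09, adjusted p = 0.233), with 877, 756, 705 and 999 CPM in LRCs and between 970 and 1001 CPM in non-LRCs. Thus 3 of 9 markers were called without that library, beside 14.5% of all genes. LRC replicate 4 was singled out by the same expression values that were then tested, so the values without it are a description. CD44 (-0.06, SE 0.07), PROM1 (0.03, SE 0.09), PTK7 (0.09, SE 0.07) and BMI1 (0.14, SE 0.09) stayed near 0 over the 8 libraries.

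In HT55, ALDH1A1 was at 172, 302, 142 and 175 CPM in LRCs and at 97.9, 302, 109 and 105 CPM in non-LRCs. The libraries numbered 2 were far above the rest of their group and level with each other. The log2 difference was 0.36 (SE 0.36, adjusted p = 0.860, edgeR). Without both libraries numbered 2 it was 0.66 (adjusted p = 0.00126), the 1 call among 7 markers beside 6.13% of all genes. Without non-LRC replicate 2 alone it was 0.93 (adjusted p = 0.0227, beside 3.92% of all genes called). These libraries were singled out by their expression values, so both results are a description. PTK7 (0.17, SE 0.13), CD44 (0.08, SE 0.14) and SMOC2 (0.03, SE 0.30) did not pass, and HT55 held too few reads of OLFM4 and MSI1 to test.

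Across the 6 lines together, with line as a term, 4 of 9 markers were higher in LRCs, beside 22.9% of the 16603 genes tested (12.2% higher). These were OLFM4 (1.32, SE 0.22, adjusted p = 2.41e-05), SMOC2 (0.96, SE 0.29, adjusted p = 0.0131), CD44 (0.15, SE 0.05, adjusted p = 0.0136) and ALDH1A3 (0.39, SE 0.12, adjusted p = 0.0159), in log2 units (edgeR). The OLFM4 value came from SW948, as the other 5 lines held at most 2 reads in any sorted library. The SMOC2 value came from few lines. OLFM4 was higher in LRCs in 9 of 24 same-numbered pairs and lower in 5, and SMOC2 was higher in 9 and lower in 6. The LRC mean of OLFM4 was higher in 3 of 6 lines and that of SMOC2 in 5, some of them on single reads. Without SW948, OLFM4 had too few counts to test and SMOC2 was at 0.17 (adjusted p = 0.656). DESeq2 called neither (adjusted p = 0.0861 and 0.0506). Without SW948 LRC replicate 4 all 4 were called, with OLFM4 at 1.56 (adjusted p = 6.73e-08) and SMOC2 at 1.05 (adjusted p = 0.00379), beside 24.4% of all genes. Leaving out 1 replicate number in every line kept OLFM4 but lost SMOC2 without number 1 or 2 (adjusted p up to 0.120), CD44 without number 1 or 4 (up to 0.142) and ALDH1A3 without number 1 or 3 (up to 0.0628). CD44 was higher in LRCs in 18 of 24 same-numbered pairs and in the mean of 5 of 6 lines, all but SW948, by 1.11-fold. It was not called without SW48 (0.09, adjusted p = 0.168) or without RKO (0.14, adjusted p = 0.0536). ALDH1A3 was higher in 17 of 24 pairs and in the mean of 5 of 6 lines, all but HT55, among them SW48 with 2 reads in all. It was not called without RKO (0.27, adjusted p = 0.119) or HCT15 (0.37, adjusted p = 0.0688). PROM1 (0.32, SE 0.14), BMI1 (0.08, SE 0.04), PTK7 (0.06, SE 0.05), ALDH1A1 (0.04, SE 0.17) and MSI1 (-0.05, SE 0.09) did not pass.

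The difference of the LRC effect between lines was tested with an F test over the 12 sorted groups. PROM1 (adjusted p = 0.000178) and PTK7 (adjusted p = 0.00102) passed, 2 of 9 markers beside 14.3% of 16603 genes. PROM1 no longer passed without DLD1 (adjusted p = 0.265), and PTK7 no longer passed without HCT15 (adjusted p = 0.0868) but did without DLD1 (adjusted p = 0.0222). Without SW948 LRC replicate 4, SMOC2 passed as well (adjusted p = 0.00208), 3 of 9 beside 18.1% of all genes. With the replicate number within each line as a block, ALDH1A1, ALDH1A3, CD44 and SMOC2 were called as well (adjusted p from 0.00105 to 0.0137), 6 of 9 beside 33.6% of all genes. The same-numbered libraries deviated together in HT55, SW48, DLD1 and HCT15, but not in SW948 or RKO.

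Other genes of the same pathways were counted by lists, against 22.9% of all genes called across the lines, where the median log2 difference over all genes was 0.01. Of 27 genes related to intestinal stem cells, 5 were called (4 higher, 1 lower, median -0.01). KLF4, a transcription factor of differentiating epithelium, was higher (0.38, SE 0.07), as was the chemokine receptor CXCR4 (0.95, SE 0.27), and CDCA7, a Myc-responsive gene, was lower (-0.45, SE 0.08). Of 13 tested ALDH and retinoid genes, 3 were called, with the retinoid dehydrogenases DHRS3 (0.63, SE 0.11) and DHRS9 (1.28, SE 0.23) higher and the mitochondrial ALDH2 lower (-0.20, SE 0.04). Of 4 paralogues of PROM1, OLFM4, SMOC2 and MSI1 that were tested, 0 were called.

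Among 9 tested partners of CD44, the proteoglycan gene VCAN (1.63, SE 0.32) and MSN, which encodes the actin linker moesin (0.82, SE 0.23), were higher, and HAS2, a hyaluronan synthase, was lower (-0.41, SE 0.14). Of 19 genes that act with PTK7 in planar polarity and Wnt signaling, 5 were called (2 higher, 3 lower, median 0.00). SCRIB (-0.16, SE 0.04) and the receptor RYK (-0.10, SE 0.03) were lower and PRICKLE1 (0.62, SE 0.20) higher. Of 14 Polycomb repressive complex 1 genes other than BMI1, 3 were called, CBX2 (-0.20, SE 0.04) and CBX8 (-0.12, SE 0.04) lower and PHC3 (0.19, SE 0.05) higher. Of 17 tested differentiation genes, 5 were called (4 higher, 1 lower, median 0.08). CEACAM7 (1.63, SE 0.27), the water channel gene AQP8 (1.58, SE 0.32) and TFF3, a goblet cell peptide (0.47, SE 0.11), were higher. VIL1, also the 1 called gene among the epithelial markers, was lower (-0.30, SE 0.10). In the fits of single lines, 0 differentiation genes were called in HT55, SW948, SW48, DLD1 or HCT15, of 13, 15, 3, 7 and 6 tested. The shares over all genes there were 0%, 0%, 0.796%, 14.6% and 0.977%. In RKO 1 of 2 tested was called, and it was lower, beside 41.5% of all genes. Of 18 proliferation genes, 9 were called, all lower (median -0.27), such as MCM2 (-0.28, SE 0.07), MCM3 (-0.24, SE 0.05) and MCM7 (-0.26, SE 0.06). Their part in the marker differences was not tested.

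The controls addressed whether dye or time in culture moved these genes. In the control libraries labelled DLD1, CD44 ranged from 13.9 to 66.5 CPM, beside 366 to 485 in sorted DLD1 and 55.8 to 70.0 in sorted HCT15. MSI1 ranged from 13.5 to 22.3 CPM, beside 1.18 to 2.05 in sorted DLD1 and 24.7 to 31.3 in sorted HCT15. BMI1 ranged from 78.0 to 179 CPM, beside 40.8 to 52.1 and 94.9 to 123. PROM1 did not exceed 0.391 CPM, beside 2.29 to 13.3 in sorted DLD1 and at most 0.478 in sorted HCT15. In these 4 markers the control ranges overlapped or lay nearest to sorted HCT15. Unsorted sampling and the sampling day also set the controls apart from the sorted libraries, and the part of each was not tested.

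Of the 9 markers, 5 had enough counts to test in the controls: ALDH1A3, CD44, PTK7, MSI1 and BMI1. CD44 was higher on day 5 than on day 1 with or without dye. Unlabeled cells were at 14.2, 14.3, 24.5 and 38.0 CPM on day 1 and at 66.5, 56.9, 45.7 and 42.3 CPM on day 5. CFSE-labeled cells were at 13.9, 16.1, 19.1 and 17.8 CPM on day 1 and at 57.7, 53.5, 35.4 and 37.4 CPM on day 5. The days did not overlap in either arm. CD44 rose by 1.21 on the log2 scale without dye (SE 0.26, 2.31-fold, adjusted p = 0.00838, edgeR) and by 1.42 with dye (SE 0.27, 2.67-fold, adjusted p = 0.00100). Both calls held without any 1 control library. Without replicate number 1, 2 or 3 in all 4 control groups, the call without dye was lost (log2 difference from 0.88 to 1.28, adjusted p from 0.0812 to 0.135), with 0 of all genes called in these 3 settings, while the call with dye was kept.

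PTK7 was at 187, 198, 180 and 265 CPM on day 1 and at 248, 286, 272 and 289 CPM on day 5 in unlabeled cells, where replicate 4 of day 1 lay among the day 5 libraries. With dye it was at 165, 154, 177 and 175 CPM on day 1 and at 228, 223, 262 and 260 CPM on day 5, without overlap. It rose by 0.40 (SE 0.12, adjusted p = 0.0275) and by 0.50 (SE 0.12, adjusted p = 0.00473). The first of these calls was lost without any of 5 single libraries, namely unlabeled day 1 replicates 1, 2 and 3 and unlabeled day 5 replicates 2 and 3 (adjusted p up to 0.0985). Without unlabeled day 1 replicate 4 it was 0.47 (adjusted p = 0.00183). The call with dye was lost without replicate number 2 in all groups (adjusted p = 0.0616).

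ALDH1A3 ran the other way. It was at 17.5, 18.8, 10.5 and 12.1 CPM on day 1 and at 9.72, 9.44, 5.85 and 6.86 CPM on day 5 in CFSE-labeled cells, and fell by 0.94 (SE 0.26, adjusted p = 0.0103, edgeR), a call kept without any 1 library but not without replicate number 2 in all groups (adjusted p = 0.0537). Unlabeled cells were at 9.44, 9.03, 10.9 and 5.08 CPM on day 1 and at 3.92, 4.89, 6.84 and 6.81 CPM on day 5. That difference of -0.61 (SE 0.27) did not pass (adjusted p = 0.0973), but without unlabeled day 1 replicate 4 it was -0.87 (adjusted p = 0.00937, beside 42.1% of all genes called). MSI1 and BMI1 passed in neither arm. Markers called over time were thus 2 of 5 without dye, beside 25.5% of 14518 genes, and 3 of 5 with dye, beside 39.3%.

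**Figure D4:**
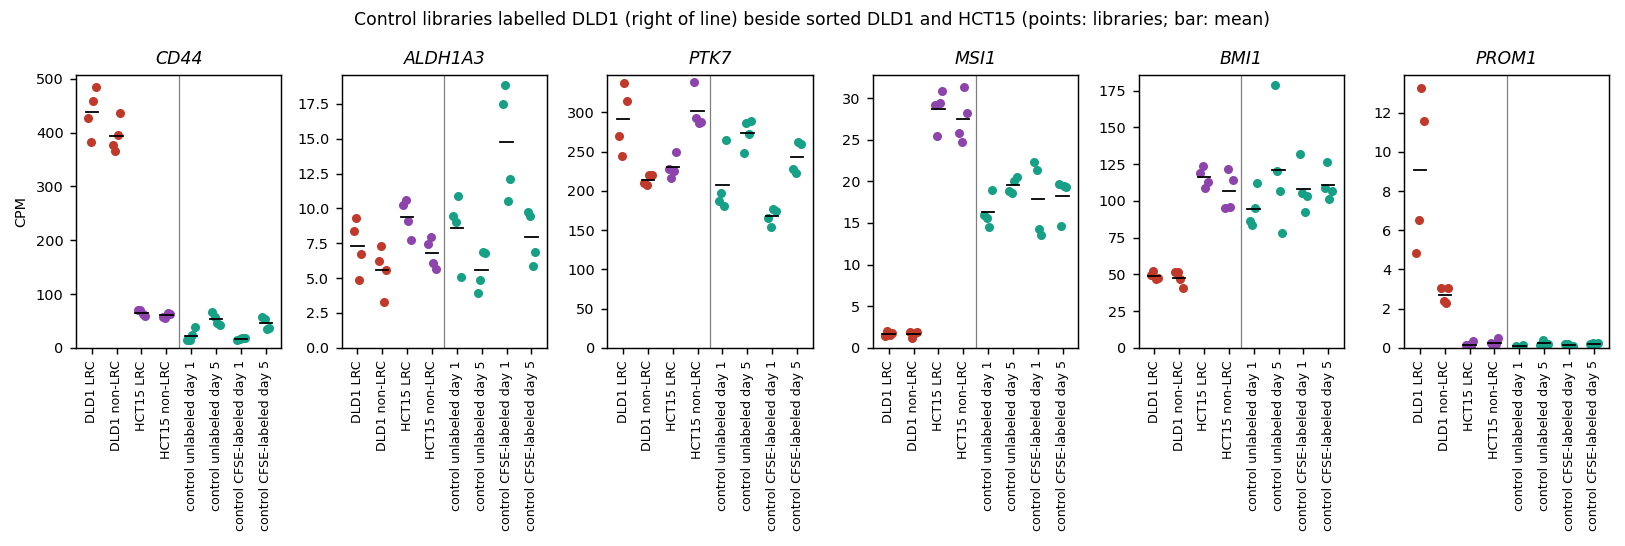
CPM of CD44, ALDH1A3, PTK7, MSI1, BMI1 and PROM1 in the 16 control libraries labelled DLD1 (green, right of the line), beside sorted DLD1 (red) and sorted HCT15 (purple). Points are libraries and bars are group means. CD44, MSI1 and BMI1 of the controls lie nearer to sorted HCT15 than to sorted DLD1, and CD44 is higher on day 5 than on day 1.

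The dye itself was compared at each day. On day 1, ALDH1A3 was higher with CFSE by 0.81 on the log2 scale (SE 0.26, 1.75-fold, adjusted p = 0.0350, edgeR), the 1 call among 5 markers beside 21.8% of all genes. It was lost without unlabeled day 1 replicate 4 (0.58, adjusted p = 0.0998, beside 18% of all genes called) and without any of 4 other single libraries, replicates 1 and 2 of either arm (adjusted p up to 0.123). PTK7 was lower with dye in 4 of 4 same-numbered pairs on day 1 (-0.28, SE 0.12, adjusted p = 0.105). On day 5, 0 of 5 markers were called beside 5.13% of all genes. The time effect did not differ between the arms for any of the 5 markers (0 of 5 called, beside 0.999% of all genes, with adjusted p from 0.513 to 0.815), at log2 differences of 0.21 for CD44 (SE 0.37) and 0.10 for PTK7 (SE 0.17). Proliferation genes moved in the controls too, with 17 of 18 higher with dye on day 5 (median 0.78). The comparisons of the controls share their groups, so their values are not independent of each other.

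Genes whose levels followed a marker most closely over the 48 sorted libraries were taken by Pearson's r on log2 CPM, among 11381 genes, for the 6 markers with a mean of at least 1 on that scale. These correlations describe 6 lines with 8 libraries each, and carry no test. ALDH1A1 went with CHDH (r = 0.977), DLEU1 (0.974) and PPP1R1B (0.968), PROM1 with CD302 (0.945), IGFBP3 (0.927) and GCLC (0.924), and CD44 with CKAP5 (0.918), CEP126 (0.911) and the pseudogene HSPD1P1 (0.906), whose reads can be shared with near-identical copies. PTK7 went with NPTN (0.951), GPR155 (0.943) and the Wnt inhibitor gene NOTUM (0.943), MSI1 with TFPI (0.932), APBB1 (0.915) and CCDC136 (0.915), and BMI1 with SLC39A14 (0.909), MFSD12 (0.868) and ESCO1 (0.854).

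After the mean of each line was taken away, the closest genes were others and r was lower. ALDH1A1 then went with NAAA (r = 0.672), CFTR (0.662) and TSPAN3 (0.656), PROM1 with PRRG2 (0.711), H2AC6 (0.678) and SATB1 (0.676), and CD44 with SH3RF2 (0.693), ATP6V1C2 (0.692) and PGF (0.685). PTK7 went with RAMP1 (0.683), CLSTN1 (0.678) and PRCP (0.671), and MSI1 with NGDN (0.556), TMCC2 (0.549) and DEDD2 (0.546). BMI1 went with CMPK1 (0.834) and NDFIP2 (0.802). The libraries behind these values share line, replicate number and population.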

How the data were processed

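RNA from the 64 samples was made into TruSeq libraries and sequenced as 50-bp single-end HiSeq reads, which were aligned to hg19. The deposited values are raw counts by Ensembl gene, without normalization, and each table ends with summary lines of the HTSeq kind. TopHat, HTSeq and DESeq are named in the submitters' processing notes without versions. The gene annotation and the strand setting of the counting are not given in the sources used here, so antisense or overlapping genes could share reads. The summary lines stayed out of library sizes, with between 5.19% and 14.8% of reads on no gene and between 1.52% and 2.21% ambiguous.

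Members were matched by symbol through GENCODE release 44 on GRCh37, which also gave positions and exon lengths. The members and gene lists were chosen with earlier results of these data known. The 10 members were always named, and other lists by at most 3 called genes with the smallest p across the lines, plus close paralogues. One gene that the rule on likeness of pattern names is not reported here. Libraries were grouped by the submitters' labels.

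Tests used edgeR 4.0.16 in R 4.3.3 (TMM scaling, quasi-likelihood F test) on the raw counts. A gene was kept where 4 or more libraries held 10 or more counts. Benjamini-Hochberg adjustment covered all genes tested and 0.05 was the threshold. An SE is the log2 fold change over the square root of F. Lines were fitted on their own 8 libraries, levels on 24 non-LRC libraries, controls on 16, and the across-line and difference tests on 48. DESeq2 1.42.0 was an alternative, as were other scalings, filters, the replicate block and left-out libraries. The procedure was tested on simulated data. Pairing was judged by the correlation of deviations from the group mean between same-numbered libraries. Every pair exceeded 0.1 in HT55, SW48, DLD1, HCT15 and in the CFSE-labeled controls over time, but not in SW948, RKO or the other control comparisons. In DLD1 and HCT15, libraries 1 and 2 also deviated together across the populations, as did 3 and 4. HT55 LRC replicate 1 was closer to non-LRC replicate 4 than to its own number, and SW48 LRC replicate 4 was closer to non-LRC replicate 1. Two-sided p-values are given throughout. The 4 libraries per group limit the precision, and SDs cover the spread between them.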

Additional observations from a re-analysis of the deposited data

Results flagged for a closer look

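Of 97 marker and group combinations in which a library held at least 10 reads, 5 had a library whose gap to its nearest neighbor made up more of the group's range than Dixon's 95% critical value for 4 samples allows. By chance 1 in 20 such groups is marked, which is 4.85 here. ALDH1A1 was highest in HT55 non-LRC replicate 2 (302 CPM) and in SW48 non-LRC replicate 2 (9.86 CPM). In both lines the libraries numbered 2 were also nearest to each other over all genes. PTK7 was highest in HCT15 non-LRC replicate 1 (339 CPM), and without it the log2 difference between LRCs and non-LRCs was -0.32 (adjusted p = 0.164, edgeR). MSI1 was lowest in SW948 non-LRC replicate 3 (0.257 CPM) and in CFSE-labeled day 5 replicate 2 (14.6 CPM) of the control libraries labelled DLD1. The cause of these values was not tested.

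The effect of label retention differed between lines for PROM1 (adjusted p = 0.000178, edgeR F test over 6 lines) and PTK7 (adjusted p = 0.00102). PROM1 was higher in LRCs in DLD1 and near 0 in difference in HT55 (-0.14, SE 0.20), SW948 (0.03, SE 0.09) and SW48 (0.09, SE 0.11). PTK7 was higher in DLD1 LRCs (0.45, SE 0.09) and its difference in HCT15, the line from the same tumor, was -0.38 (SE 0.09, adjusted p = 0.0693). No single pair of lines was tested for this difference.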

How the results depend on the processing

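Alternatives were compared for markers called in a comparison under at least 1 setting. Of these alternative values, 454 kept their side of the threshold, 45 passed only under the alternative and 31 no longer passed. Alternatives that gave a marker no adjusted p, such as those with too few counts to test it, were not counted. Fits without 1 control library were counted only for unlabeled day 1 replicate 4, and the level between lines was not counted. Among values with a log2 difference that passed in the main fit or the alternative, none changed sign. Sign was not compared where neither passed. With DESeq2, 1 marker was called in SW948, in SW48 and in HCT15 (beside 1.78%, 2.74% and 3.79% of all genes), 2 across the 6 lines (23.9%) and 4 for the difference between lines (20.5%). With no filter on low counts, 2 were called in SW948 (3.6%), 1 in HCT15 (1.26%), 4 for the difference between lines (7.86%) and 1 over time in unlabeled controls (10.9%). With at least 10 counts in every sample, which left 3 markers to test over all lines, 1 was called in RKO (42.6%), 1 across the lines (30.3%), 1 for the difference between lines (20.5%) and 3 for the level (99.4%), and 38 rather than 113 marker and line pair differences were called (of 45 and 135, beside 73.7% and 71.1%). One fit of all 48 sorted samples called 2 in SW948 (2.34%) and 1 in SW48 (2.93%) and in HCT15 (4.2%). Library sizes without TMM, like a fit of only the 8 samples compared, called 1 over time in unlabeled controls (21.4% and 5.36%), and the latter called 0 for the dye on day 1 (10.8%). Leaving out line SW948 or line RKO left 2 calls across the lines (19.5% and 14.6%), and leaving out line HCT15 left 1 for the difference between lines (13.2%).

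The replicate block gave 2 calls in SW948, SW48 and HCT15, 5 in DLD1 and 6 for the difference between lines, and changed no count of markers called in the other comparisons. SW948 libraries share only a number (r of same-numbered libraries from -0.04 to 0.33), and there the block called OLFM4 (1.21, adjusted p = 0.000302, edgeR) and SMOC2 (2.16, adjusted p = 0.000118). Without 1 library, the calls ranged from 0 to 1 in HT55, SW48 and HCT15, from 0 to 3 in SW948 and from 1 to 2 in RKO. Without 1 replicate number in every group, they ranged from 1 to 4 across the lines, from 0 to 1 for the dye on day 1, from 0 to 4 over time in unlabeled and from 1 to 3 in CFSE-labeled controls. Left out together, the libraries numbered 2 gave 1 call in HT55 and 1 in SW48, an alternative chosen after seeing the data, as were those without SW948 LRC replicate 4 in the fits over all lines and without single control libraries. The cause of these shifts was not tested.

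Over all genes, SW948 had 0 calls, against 501 with the block and 1956 without LRC replicate 4. HT55 had 0 calls, against 521 without non-LRC replicate 2 and 808 without both libraries numbered 2. SW48 had 105 and 1279 with the block, DLD1 1978 and 4591, HCT15 137 and 2987, and the difference between lines 2380 and 5583. Unlabeled controls over time had 3695, and 6077 without unlabeled day 1 replicate 4. Depth limits OLFM4, SMOC2, PROM1 and ALDH1A3 in the lines where they held few reads. Without TMM, 26 of 144 group means moved by more than 1 SD.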
